A study of Mus musculus with 6 samples.

Results

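The genes followed here are 10 regulators of mitochondrial DNA and of mitochondrial biogenesis in LSK cells, marrow cells sorted as negative for lineage markers and positive for Sca-1 and c-Kit, among which are the haematopoietic stem cells. They were chosen by symbol, as Tfam, Tfb1m, Tfb2m, Polrmt, Polg, Polg2, Ppargc1b, Nrf1, Gabpa and Esrra, and all 10 were found among the 24787 genes that the microarray names by a RefSeq symbol or synonym. The study compared LSK cells of control mice (Atg5w/w;VaviCre+) and Atg5f/f;Vav mice (Atg5f/f;VaviCre+), which lack Atg5, a protein needed to build the autophagosome, in the blood lineage. Both groups were C57BL/6 mice at P6 to P8 and carried Vav-iCre, a recombinase driven by a promoter active in haematopoietic cells, so that marrow cells of other origin may keep the floxed gene. RNA of 3 control and 3 Atg5f/f;Vav samples was hybridised, with 1 one-colour Agilent array per sample. The labels do not say whether a sample was 1 mouse or a pool, so n counts arrays and p-values measure the spread between these samples, which may be technical.

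Mitochondria keep a small circular genome that encodes part of the respiratory chain, and everything that copies, transcribes and packages it is encoded in the nucleus. TFAM coats and bends the DNA, and together with TFB2M it brings the RNA polymerase POLRMT to the mitochondrial promoters, while polymerase gamma (the catalytic subunit POLG with its accessory subunit POLG2) copies the genome. The transcription factors NRF1, GABP and the estrogen-related receptor alpha, with coactivators of the PGC family, switch on nuclear genes for these proteins and for the respiratory chain, and autophagy is one route by which whole mitochondria are removed.

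The promoters of the members were read first, because 3 of the members encode DNA-binding factors known for acting on genes of this kind. RefSeq windows (GRCm38.p6) were read for 9 of the 10 genes, which had 10 windows between them. In the 250 bases before the start site, 5 motifs were searched on both strands. The letters CCGGAAG, a core bound by GABP and other ETS factors, occurred in 5 of the 10 windows, before 5 of the 9 genes. They occurred in 6.91% of all 32851 windows and 11.97% of the 14342 windows of genes that were tested here. The letters GCGCANGCG, a core of the NRF1 site, occurred in 1 of the 10 windows (5.16% of all windows, 9.53% of those of tested genes). No member window held TCAAGGTCA, the site of the estrogen-related receptors (0.387% of all windows, 0.307% of those of tested genes), or the E-box CACGTG (6.02% and 7.80%), and CCAAT occurred before Nrf1 (33.8% and 35.3%). No 2 matches overlapped, and no match or lack of one says whether a factor binds. The last 150 bases before the start site are shown for the 6 genes with an ETS or NRF1 match, on the strand of the gene, with the match in capitals. The ETS match starts 47 bases before the start site of Tfam and 38 before that of Polg, and in reverse orientation 43 before Polrmt, 29 before Polg2 and 93 before Gabpa itself. The NRF1 match starts 141 bases before Esrra.
Tfam (chr10:71238045-71238194, minus strand): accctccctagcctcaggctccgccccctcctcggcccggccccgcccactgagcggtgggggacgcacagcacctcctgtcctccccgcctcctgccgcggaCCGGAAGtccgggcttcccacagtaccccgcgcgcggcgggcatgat
Polrmt (chr10:79746582-79746731, minus strand): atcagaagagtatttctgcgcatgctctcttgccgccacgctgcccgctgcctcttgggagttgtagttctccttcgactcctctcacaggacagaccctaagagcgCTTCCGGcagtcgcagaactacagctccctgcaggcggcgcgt
Polg (chr7:79466274-79466423, minus strand): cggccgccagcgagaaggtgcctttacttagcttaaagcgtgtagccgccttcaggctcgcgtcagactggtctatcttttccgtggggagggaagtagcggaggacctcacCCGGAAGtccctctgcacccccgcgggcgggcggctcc
Polg2 (chr11:106779538-106779687, minus strand): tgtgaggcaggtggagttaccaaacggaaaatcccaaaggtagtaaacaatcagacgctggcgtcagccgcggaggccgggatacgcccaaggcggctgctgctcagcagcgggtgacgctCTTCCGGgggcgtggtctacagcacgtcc
Gabpa (chr16:84834974-84835123, plus strand): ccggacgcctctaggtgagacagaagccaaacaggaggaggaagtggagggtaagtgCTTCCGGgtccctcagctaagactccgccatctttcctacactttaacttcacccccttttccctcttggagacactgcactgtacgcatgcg
Esrra (chr19:6921809-6921958, minus strand): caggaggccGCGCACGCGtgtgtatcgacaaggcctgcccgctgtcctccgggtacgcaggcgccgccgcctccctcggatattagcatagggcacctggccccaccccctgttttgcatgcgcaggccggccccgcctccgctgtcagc

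The state of the arrays comes before the values. All 6 arrays sat on 1 slide, with the control arrays in row 1 and the Atg5f/f;Vav arrays in row 2, so row and genotype cannot be told apart. The share of non-control spots well above background was 59.9%, 59.4% and 59.9% in control arrays. In Atg5f/f;Vav arrays it was 56.7%, 55.8% and 53.6%, without overlap between the groups. How this bears on the scaling was not tested. The single Atg5 probe lies at base 2251 of its transcript, the sources used here do not give the deleted part, and so the probe checks no label. Its log2 signal was 1.03 ± 0.085 in control and 1.57 ± 0.15 in Atg5f/f;Vav arrays (SD, n = 3 each), that is, higher in the arrays labelled as lacking Atg5 (limma adjusted p = 0.021). All 6 LSK markers were measured, 3 with a higher and 3 with a lower mean in Atg5f/f;Vav (median 0.017). Ly6a, which encodes Sca-1, rose by 1.57 on the log2 scale, no other was called, and 2 of the lower ones were called with normexp, quantile normalization, the 75th percentile over detected probes or an intensity trend. Control replicates 2 and 3 stand apart in stromal genes: the log2 signal of Sparc was 0.63, 3.36 and 3.15 in the controls, and in Atg5f/f;Vav it lay between -0.53 and -0.011. The calls of limma across all genes depend on single control arrays, and each member call is given with the arrays that it needs.

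All 10 members had a higher mean signal in Atg5f/f;Vav than in control LSK cells, against 51.4% of the 15136 genes tested. The differences were small, from 0.010 to 0.50 on the log2 scale with a median of 0.26. Polrmt and Esrra rose past the threshold (Benjamini-Hochberg adjusted p under 0.05 from limma), which is 2 of 10 members, against 21.1% of the 15136 genes tested that were called higher. None of the 10 was called lower by limma, since all 10 had a higher mean, against 13.5% of all genes. In 6 of the 10 every Atg5f/f;Vav array lay above every control array, as it did for 33.2% of all genes. The share of calls was thus close to the background, and the median over all genes was 0.018. The sign of 2 members depends on the scaling: with the 75th percentile taken over probes detected on all arrays, Polg2 and Gabpa were lower in Atg5f/f;Vav, and with quantile normalization Polg2 was.

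**Figure D1:**
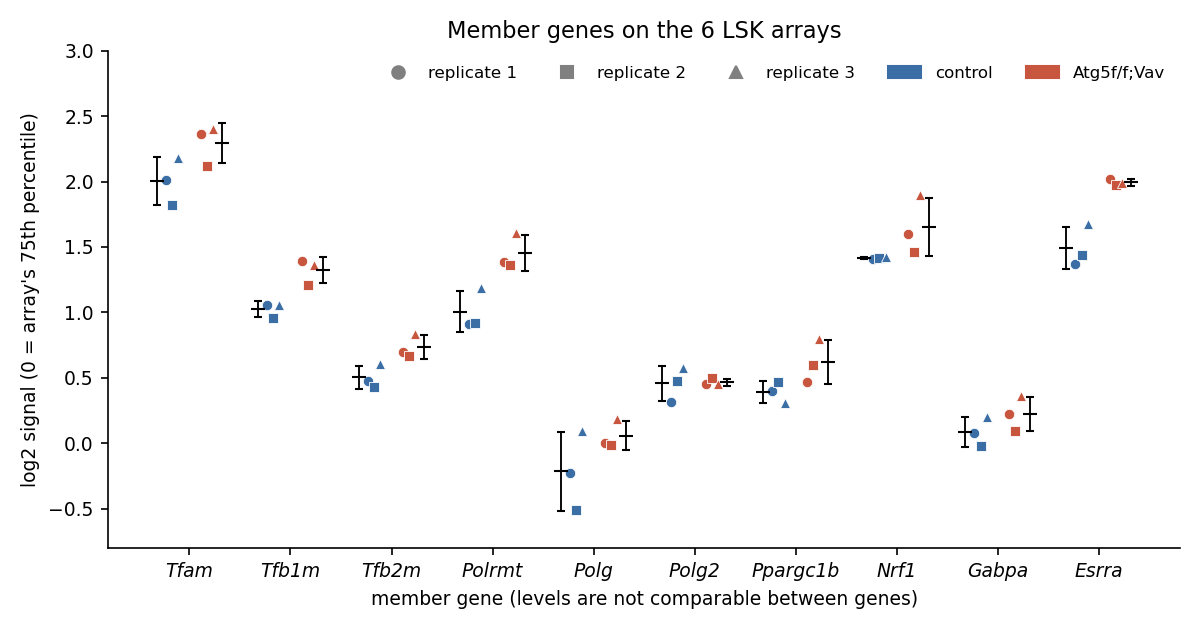
Log2 signal of the 10 member genes (x axis) on each of the 6 arrays, with 0 at each array's 75th percentile (y axis). Blue symbols are control and red symbols Atg5f/f;Vav arrays, the shape gives the replicate number, and the black bars beside them are the mean and SD (n = 3); the groups do not overlap for Tfb1m, Tfb2m, Polrmt, Ppargc1b, Nrf1 and Esrra.

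Among the genes that transcribe mitochondrial DNA, Polrmt, the mitochondrial RNA polymerase, rose. The log2 signal of its only probe (mm9 chr10:79198897-79198956, from base 3675 of the transcript) was 0.91, 0.92 and 1.18 in the controls and reached 1.38, 1.36 and 1.61 in Atg5f/f;Vav. The lowest Atg5f/f;Vav array lay above the highest control array, which was replicate 3. The difference of 0.45 (SE 0.13, 95% interval 0.13 to 0.76), or 1.36-fold, passed the test with a limma adjusted p of 0.040. It lost the call with any one of control replicates 1 and 2 and the 3 Atg5f/f;Vav replicates left out (highest adjusted p 0.138), and kept it without control replicate 3 (0.041).

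Tfam, which packages the genome into nucleoids and helps to bring POLRMT to its promoters, was read by 2 probes. The brighter probe (mm9 chr10:70691103-70691162, from base 980) gave 2.01, 1.82 and 2.18 in control against 2.36, 2.12 and 2.41 in Atg5f/f;Vav arrays, so that Atg5f/f;Vav replicate 2 fell below control replicate 3. The difference was 0.29 (SE 0.14, 95% interval -0.046 to 0.63, limma adjusted p = 0.146). The dimmer probe, which starts at base 823 of the same transcript, gave 1.17, 0.95 and 1.16 in control and 1.61, 1.33 and 1.65 in Atg5f/f;Vav arrays. These groups did not overlap, and its difference of 0.43 (SE 0.14) was past the threshold (limma adjusted p = 0.046). The 2 probes of Tfam thus fell on different sides of the threshold with intervals that overlap, and the probe that represents the gene under the rule is the one that was not called.

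TFB1M and TFB2M are related proteins with separate tasks, the former modifying the small ribosomal RNA of the mitochondrion and the latter opening promoters for POLRMT. The Tfb1m probe (mm9 chr17:3519390-3519449, from base 1140) gave 1.06, 0.95 and 1.06 in control and 1.40, 1.21 and 1.36 in Atg5f/f;Vav arrays. The groups did not overlap, and the difference of 0.30 (SE 0.11, 95% interval 0.041 to 0.56) had an adjusted p of 0.070 from limma. A second Tfb1m probe, designed on a cDNA clone, was not well above background on any array. The Tfb2m probe (mm9 chr1:181458247-181458306, from base 2328) gave 0.48, 0.43 and 0.60 in control against 0.69, 0.67 and 0.84 in Atg5f/f;Vav arrays, again without overlap. Its difference was 0.23 (SE 0.11, 95% interval -0.032 to 0.49, limma adjusted p = 0.140), and a second probe for Tfb2m gave 0.21. Of the 4 genes of mitochondrial transcription, 1 was called, against 21.1% of all genes called higher, and their median difference was 0.29.

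The 2 subunits of polymerase gamma gave different estimates. The representing probe of Polg, the catalytic subunit (mm9 chr7:86594739-86594798, from base 4066), gave -0.23, -0.51 and 0.093 in control against 0.00057, -0.016 and 0.19 in Atg5f/f;Vav arrays. Control replicate 3 lay above 2 of the 3 Atg5f/f;Vav arrays, and the control SD of 0.30 was the largest of any member in either group. The difference was 0.27 (SE 0.17, 95% interval -0.13 to 0.68, limma adjusted p = 0.241), and the other 2 tested probes gave 0.32 and 0.37, also not called. A further Polg probe was well above background on 1 array and was not tested. Without control replicate 2, the lowest of the controls, the Polg difference was 0.12, and without control replicate 3 it was 0.43.

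Polg2, the accessory subunit that holds the polymerase on its template, showed no difference beyond the spread. Its probe (mm9 chr11:106629575-106629634, from base 1460) gave 0.32, 0.48 and 0.58 in the controls, and the Atg5f/f;Vav values of 0.45, 0.50 and 0.45 all lay within the control range. The difference was 0.010 (SE 0.11, limma adjusted p = 0.948), and its 95% interval of -0.25 to 0.28 leaves room for a small change in either direction. The second Polg2 probe gave 0.0083 with an interval of -0.23 to 0.24.

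Of the nuclear regulators, Esrra, an orphan nuclear receptor that drives genes of the respiratory chain and of fatty acid oxidation, gave the largest difference of the 10 members. Its representing probe (mm9 chr19:6985503-6985562, from base 2146) gave 1.37, 1.44 and 1.67 in control and 2.02, 1.97 and 1.99 in Atg5f/f;Vav arrays. The 3 Atg5f/f;Vav arrays had an SD of 0.024 and lay above every control array. The rise was 0.50 (SE 0.12, 95% interval 0.22 to 0.78), or 1.42-fold, with a limma adjusted p of 0.023. With 1 array left out at a time the rise ranged from 0.44 to 0.59 and was called in 3 of 6 fits; the call was lost without control replicate 1, control replicate 2 or Atg5f/f;Vav replicate 2 (highest adjusted p 0.095). A second Esrra probe, designed on a cDNA clone, gave -0.066 (95% interval -0.43 to 0.29) and did not show the rise. With the mean of both probes in place of the brighter one, the Esrra difference was 0.22 with an adjusted p of 0.186 from limma.

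Nrf1, nuclear respiratory factor 1, was read by 3 tested probes. The representing probe (mm9 chr6:30103035-30103094, from base 3163) gave 1.41, 1.41 and 1.42 in control arrays, the tightest group of any member (SD 0.0085), against 1.60, 1.46 and 1.89 in Atg5f/f;Vav arrays (SD 0.22). All 3 Atg5f/f;Vav arrays lay above the controls, replicate 2 by little and replicate 3 by most. The difference was 0.24 (SE 0.14, 95% interval -0.084 to 0.56, limma adjusted p = 0.202). The other 2 tested probes, on other transcript models of Nrf1, gave 0.33 and 0.28, also without overlap between the groups, with limma adjusted p of 0.073 and 0.095. A further Nrf1 probe was not well above background on any array.

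Gabpa encodes the DNA-binding subunit of GABP. Its representing probe (mm9 chr16:84863822-84863881, from base 4784) gave 0.075, -0.024 and 0.20 in control and 0.22, 0.095 and 0.36 in Atg5f/f;Vav arrays. The groups overlapped, since Atg5f/f;Vav replicate 2 lay below control replicate 3. The difference was 0.14 (SE 0.12, 95% interval -0.15 to 0.43, limma adjusted p = 0.390). The other 2 probes of the same transcript gave 0.085 and -0.13, so that the Gabpa probes did not share a sign.

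Ppargc1b, a coactivator of the PGC family that works with estrogen-related receptors and NRF1, was read by a probe from base 3134 of its transcript. It gave 0.40, 0.47 and 0.30 in control and 0.47, 0.60 and 0.80 in Atg5f/f;Vav arrays. The groups did not overlap, though Atg5f/f;Vav replicate 1 lay barely above control replicate 2. The difference was 0.23 (SE 0.13, 95% interval -0.066 to 0.53, limma adjusted p = 0.183). The second probe, on a longer transcript model, gave 0.11 with overlapping groups.

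**Figure D2:**
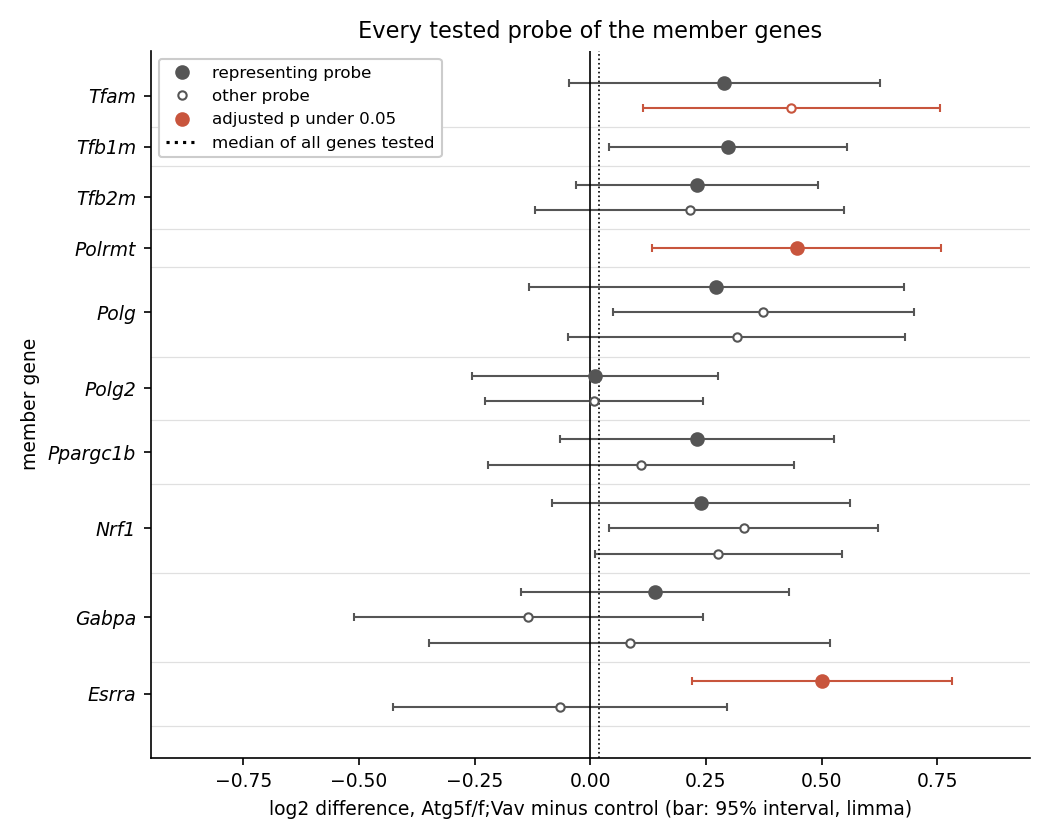
Log2 difference, Atg5f/f;Vav minus control (x axis), with its 95% interval from limma, for every tested probe of the 10 member genes (y axis). Filled points are the probes that represent a gene, open points the others, red marks an adjusted p under 0.05, and the dotted line is the median of all genes tested at 0.018; 19 of the 21 points lie right of 0.

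Over all 24 probes of the members, 21 were tested, 19 had a higher and 2 a lower mean in Atg5f/f;Vav, and 3 were called, all higher (Polrmt, the brighter Esrra probe and the dimmer Tfam probe). Probes of a gene share its transcripts and are not replicates. An unadjusted limma p under 0.05 was reached by 7 of the 21 probes and by 3 of the 10 representing probes (Tfb1m, Polrmt and Esrra). Of all 32074 probes tested, 15506 reached it, and 11024 were called after adjustment (5540 higher and 5484 lower). The members' probes thus held no excess of calls.

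The arrays of a group shared part of the members' variation. The median log2 signal over the 10 members was 0.69, 0.70 and 0.83 in control against 1.04, 0.94 and 1.10 in Atg5f/f;Vav arrays. Control replicate 3 was the highest control for 8 of the 10 members, and Atg5f/f;Vav replicate 2 was the lowest of its group for 8 of the 10. The SD within a group ranged from 0.0085 to 0.30 over the members.

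Whether related members changed unequally was tested on 3 pairs with an exact two-sided permutation test over the 6 arrays, which cannot give a p under 0.10. The difference between groups was larger by 0.069 for Tfb1m than for Tfb2m (exact p = 0.40). It was larger by 0.26 for Polg than for Polg2 (exact p = 0.20). For Nrf1 it was larger by 0.098 than for Gabpa (exact p = 0.40), with the opposite sign after quantile normalization (-0.039). The adjusted p over the 3 pairs was 0.40 for each by the same exact test, and no unequal change was detected. With the mean of all tested probes of each gene, Polg minus Polg2 was 0.31 and Nrf1 minus Gabpa 0.25, each at the smallest p the test allows (exact p = 0.10).

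The members were then set beside 5 lists of genes that act with them, 70 genes in all, of which 65 were tested. Of these 65 genes, 27 were called higher and 3 lower, against 21.1% and 13.5% of the 15136 genes tested. Their median difference was 0.30, and 1 of the 3 lower calls (Ppargc1a) was tested only because of its level in control. With the 75th percentile taken over probes detected on all arrays, 19 were called higher and 10 lower. No call remained in these lists without control replicate 1 or without control replicate 2, where 31 and 30 of the genes had an unadjusted limma p under 0.05. Of all 32074 probes tested, 11616 and 11455 had one in these 2 fits. The medians of the lists are descriptions, and no list was tested as a set.

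Replication and repair of mitochondrial DNA, the work that polymerase gamma does with a helicase, nucleases and a ligase, held 7 called rises and no called fall among 12 genes tested (median 0.45). Over all genes, 21.1% were called higher and 13.5% lower. Endog, a mitochondrial nuclease, rose by 1.08 (SE 0.19, limma adjusted p = 0.015), from -0.85, -0.89 and -0.41 in control to 0.24, 0.19 and 0.66 in Atg5f/f;Vav arrays. Fen1, a flap nuclease of nuclear and mitochondrial DNA, rose by 0.95, and Lig3, the mitochondrial DNA ligase that also repairs nuclear DNA, by 0.68. The list held 5 called rises with the 75th percentile over detected probes (median 0.25) and 7 with quantile normalization (median 0.39). All 17 genes of a proliferation list (Mcm6 and Mcm7 the brightest) also rose, with a median of 0.72 and a summed signal of 253 to 307 times the array's 75th percentile in control against 389 to 472 in Atg5f/f;Vav arrays; the calls were 11 with the 75th percentile over detected probes, 9 with quantile normalization (median 0.47), 6 without the filter on dim probes and 0 without control replicate 1 or 2, with all 17 means still higher in each. The part of proliferation in the rises of these genes, Polrmt and Esrra was not tested.

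Mitochondrial RNA synthesis and processing, the steps after POLRMT, held 11 rises and no fall among 22 genes (median 0.38). Over all genes, 21.1% were called higher and 13.5% lower. With the 75th percentile over detected probes the list held 8 rises and 3 falls. Rexo2, an exonuclease for short mitochondrial RNA, rose by 1.11 (SE 0.23, limma adjusted p = 0.019), from between 1.23 and 1.36 in control to between 1.95 and 2.91. Elac2, which cuts the 3′ ends of transfer RNAs, rose by 0.91, and Lrpprc, which stabilises mitochondrial messenger RNA, by 0.75. Among nucleoid proteins and their turnover, 4 of 5 genes rose (median 0.69), led by the prohibitins Phb (1.22) and Phb2 (1.01) of the inner membrane and by Atad3a (0.69). With quantile normalization 2 of the 5 were called (median 0.33), and Atad3a was not (limma adjusted p = 0.052). The 75th percentile over detected probes left 4 calls (median 0.48).

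Nucleotide supply to mitochondrial DNA held 3 rises and 2 falls among 10 genes (median -0.025), against 21.1% of all genes called higher and 13.5% lower. Slc25a33, a mitochondrial pyrimidine nucleotide carrier, rose by 1.22, and Suclg1 and Tymp by 0.55 and 0.37. Slc25a36, a related carrier, fell by 0.38, and Mpv17, an inner membrane protein lost in a DNA depletion syndrome, fell by 0.34 (limma adjusted p = 0.0497). With the 75th percentile over detected probes the list held 1 rise and 4 falls. With quantile normalization it held 2 rises and 3 falls, without calls for Suclg1 and Tymp (limma adjusted p = 0.095 and 0.124). With the deposited values Mpv17 was not called (limma adjusted p = 0.059). No fall was called with the replicate block, without the filter on dim probes, without any 1 control replicate or without Atg5f/f;Vav replicate 2.

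The partners of the nuclear regulators held 2 rises and 1 fall among the 16 of 21 genes that were tested (median -0.090). Over all genes, 21.1% were called higher and 13.5% lower. With the 75th percentile over detected probes the list held 1 rise and 3 falls (12 of 16 lower, median -0.30). Pprc1, the third coactivator of the PGC family, rose by 0.64 (SE 0.16, limma adjusted p = 0.026) and Stk11, a kinase upstream of AMPK, by 0.65. Ppargc1a, the coactivator closest to Ppargc1b, was dim: it gave log2 signals of -3.41, -4.20 and -3.89 in control, all well above background, and -5.06, -5.59 and -6.45 in Atg5f/f;Vav, none well above background. Set against the lowest signal that counts as well above background, it was at least 1.70-fold lower in Atg5f/f;Vav in the scaling used here (measured means -3.84 and -5.70). That bound does not hold for every background correction, and with normexp Ppargc1a differed by -0.58 on the log2 scale. It entered the test only through the 3 control arrays, so its call and the list's count of 1 fall are given as a description. Gabpb1 and Gabpb2, which pair with Gabpa, were not called (-0.14 and -0.18).

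The transcripts that POLRMT makes were read for 11 of the 13 protein genes of mitochondrial DNA. Of these, 3 rose and none fell (median 0.37), against 21.1% of all genes called higher and 13.5% lower. With the 75th percentile over detected probes 1 rose and 1 fell. With quantile normalization 1 was called and 4 of the 11 had a lower mean (median 0.086), with normexp and an intensity trend 6 and 7 were called higher, and without control replicate 1 or 2 none was called. ND1, a subunit of complex I, gave 2.98, 2.94 and 3.20 in control and 3.84, 3.76 and 4.23 in Atg5f/f;Vav arrays, a rise of 0.90 (SE 0.16, limma adjusted p = 0.016). ND2 rose by 0.63, and ND3 by 0.69, but the file places the ND3 probe on nuclear chromosome 1, so that probe may read another transcript.

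**Figure D3:**
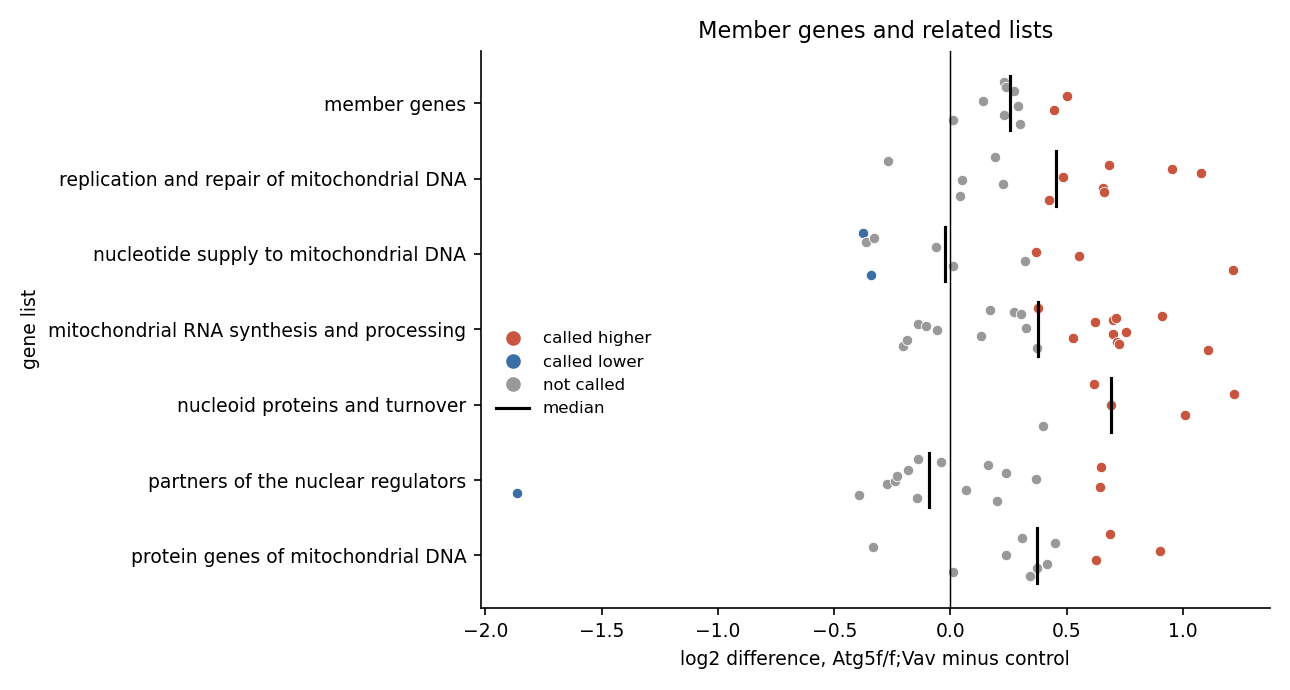
Log2 difference, Atg5f/f;Vav minus control (x axis), of each tested gene in the member set and in 6 related lists (y axis); points are spread vertically for legibility. Red points were called higher and blue points lower (limma adjusted p under 0.05), grey points were not called, and black bars are medians, 0.26 for the members and between -0.090 and 0.69 for the lists; the point at -1.86 is Ppargc1a, below background in Atg5f/f;Vav.

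Markers of cell types are given as values beside the members, with 21.1% of all genes called higher and 13.5% lower. The summed signals of erythroid, megakaryocyte, stromal and macrophage genes did not overlap between the groups. Those of LSK, myeloid, B cell and T and NK cell genes did. In units of the array's 75th percentile, the summed signal of the 6 LSK markers (Cd34 and Flt3 the brightest) was 132 to 144 in control and 92.4 to 151 in Atg5f/f;Vav arrays. The 9 erythroid genes (Hemgn and Rhd the brightest) held 4 rises and 2 falls, with sums of 38.9 to 45.0 against 46.5 to 89.0. Atg5f/f;Vav replicate 3, the highest of its group for 7 of the 10 members, had the highest erythroid sum. Replicate 2, the lowest of that group for 8 of the 10, had a higher sum (55.1) than replicate 1 (46.5). Control replicate 3, the highest control for 8 of the 10, had the lowest sum (38.9). The sums of the proliferation list were 276, 253 and 307 in control replicates 1 to 3. In Atg5f/f;Vav replicates 1 to 3 they were 399, 389 and 472. There, replicate 3 was the highest of each group and Atg5f/f;Vav replicate 2 the lowest of its group, as for most members. Whether the members follow this list was not tested. The 10 genes of myeloid progenitors and neutrophils held 4 rises, Mpo among them, and 5 falls, S100a9 among them, with sums of 181 to 299 against 244 to 303. Quantile normalization left 2 rises, without Mpo (limma adjusted p = 0.070), and 4 falls, and without the filter on dim probes there were 1 and 0. The 5 megakaryocyte genes (Gp9, which fell, and Pf4) held 1 rise and 2 falls (Ppbp being tested only through the controls), with sums of 5.96 to 7.35 against 5.31 to 5.78. Without control replicate 1 or without control replicate 2, none of the erythroid, myeloid, megakaryocyte and B cell genes was called.

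Of 6 stromal genes 4 were tested (Lepr and Sparc the brightest, with Col3a1 and Cdh5 not above background on any array), and 3 were called lower (Col1a1 being tested only through the controls), with sums of 8.98, 39.4 and 29.5 in control and 5.13 to 8.28 in Atg5f/f;Vav arrays. The stromal calls were 1 with quantile normalization, the replicate block or without Atg5f/f;Vav replicate 1, and 0 without the filter on dim probes or without any one of control replicates 2 and 3 and Atg5f/f;Vav replicates 2 and 3. Of 6 macrophage genes 4 were tested (Csf1r and Cd68 the brightest; Mrc1 not above background on any array) and limma called none (none at an unadjusted p under 0.05 either, but 1 with quantile normalization), with sums of 4.68 to 6.24 against 6.49 to 6.60. All 6 B cell genes were tested (Cd79b and Ebf1 the brightest) and 1 rose, with sums of 8.59 to 10.2 against 7.49 to 11.8. For 5 of 6 T and NK cell genes (Nkg7 and Lck the brightest; Cd8a not above background) limma called none, also at an unadjusted p under 0.05 (1 lower with the replicate block or without Atg5f/f;Vav replicate 1, and 1 higher without control replicate 3), with sums of 11.4 to 15.5 against 12.9 to 16.8. Against control replicate 1 alone, the control with the lowest stromal sum, the median difference of the members was 0.26, with Polrmt at 0.54 and Esrra at 0.63 and no gene called. The part of cell composition in the members' differences was not tested, and in bulk samples fewer cells of a type and less RNA per cell cannot be told apart.

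**Figure D4:**
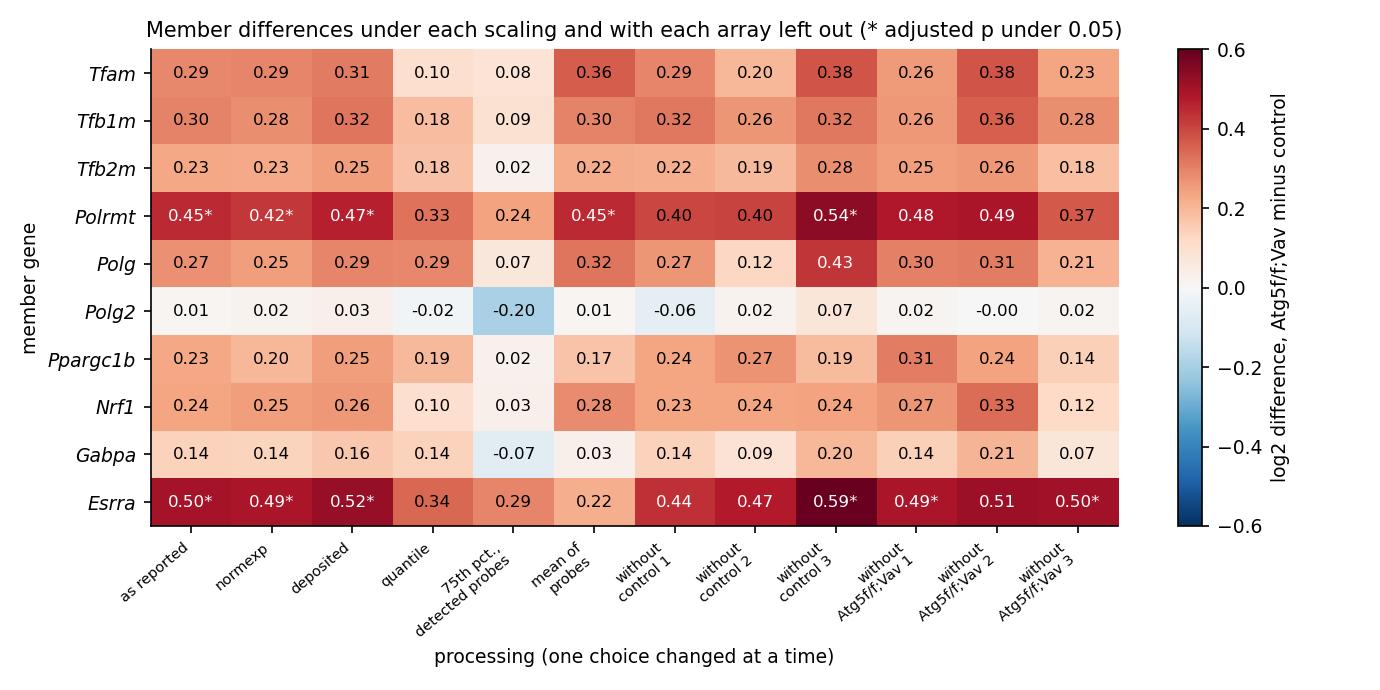
Log2 difference, Atg5f/f;Vav minus control (colour and printed value), of each member gene (y axis) as reported, under other background corrections, scalings and probe summaries, and with each array left out (x axis); an asterisk marks an adjusted p under 0.05 from limma. Polrmt and Esrra keep the largest values under most choices. Both lose their calls with quantile normalization, with the 75th percentile over detected probes, and without control replicate 1, control replicate 2 or Atg5f/f;Vav replicate 2. Esrra also loses its call with the mean of probes, and Polrmt without Atg5f/f;Vav replicate 1 or 3. The values shrink with the 75th percentile over detected probes, where Polg2 (-0.20) and Gabpa (-0.066) are below 0.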

How the data were processed

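RNA of LSK cells was measured on 6 one-colour Agilent arrays, 3 per group, grouped by sample title. The authors deposited 1 intensity per spot as Agilent Feature Extraction 12.0.3.1 wrote it, with background and spatial trend already removed, on probes designed on mm9, together with a table of normalised signal, each intensity divided by a percentile of its array. Depth cannot be counted on arrays, and the number of arrays limits the precision.

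Here each array was scaled to the 75th percentile of its 59305 non-control spots (620 to 881 in intensity) and log2 was taken. Outlier-flagged spots (64 to 81 per array) were dropped, none was saturated, and spots of a probe were averaged. Of 56605 probes, those passing the scanner's background criterion on 3 or more arrays (32074) went into limma (version 3.58.1, R version 4.3.3; lmFit, eBayes, two-sided), with Benjamini-Hochberg adjustment over all of them and a threshold of 0.05. A gene is represented by its brightest tested probe. On simulated data of 3 against 3 arrays, limma recovered 41 of 100 probes with a log2 change of 1 and 85 of 100 with one of 2 among 32074, with 6 false calls. No other probe was changed there, whereas 11024 probes were called in the data. The adjustment was therefore stricter in the simulation, and these counts do not give the share of changes missed in the data.

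All members are named, and of each related list at most 3 called rises and 3 called falls of the largest size, of each marker list the 2 brightest genes, and Atg5. Other genes named were chosen after their values were seen. Lists, members and tests were chosen with earlier results of these data known. Of 164 listed names, 149 matched by symbol, 2 by synonym and 11 by their mitochondrial name; mt-Co3 and mt-Atp6 were not matched. Alternatives were normexp (offset 50), quantile normalization, the percentile over detected probes, the deposited values, other filters, an intensity trend, the methods' t-test, a replicate block, the mean of a gene's probes and each array left out.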

Additional observations from a re-analysis of the deposited data

How the results depend on the processing

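Polrmt and Esrra were also called with normexp, the deposited values, a filter on all 6 arrays, outlier spots kept and an intensity trend (then 3 members, with Tfb1m). There were 0 member calls with quantile normalization, with the 75th percentile over detected probes and without a filter on dim probes (2, 1 and 3 members at an unadjusted limma p under 0.05), and 1 with the mean of a gene's probes. The methods' t-test gave 0 members, 0 related genes and 0 probes after adjustment and 4, 39 and 13541 at their threshold without it. Without the filter 17 related genes and 4538 probes were called, against 30 and 11024. With 1 array left out, the calls ranged from 0 to 2 members, 0 to 26 related genes and 251 to 10304 probes, with 330 probes without control replicate 1 and 251 without control replicate 2. With control replicates 2 and 3 both left out, an alternative chosen after seeing the data in which the lone control is assumed to vary like the other group, 0 members, 0 related genes and 0 probes were called (1, 21 and 7307 at an unadjusted limma p under 0.05).

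The median difference of the members, 0.26, was 0.049 with the 75th percentile over detected probes, which moved the median of all genes from 0.018 to -0.19, so that the members stayed 0.24 above it; that scaling split the called probes into 3371 higher and 10088 lower, against 5540 and 5484. Leave-one-out medians ranged from 0.19 to 0.32. Polg2 turned to -0.20 and Gabpa to -0.066 with that percentile, Polg2 also to -0.018 with quantile normalization, and between -0.059 and 0.071 with 1 array left out. Nrf1 minus Gabpa turned to -0.039 with quantile normalization and ranged from 0.043 to 0.15 with 1 array left out, Polg minus Polg2 from 0.10 to 0.36 and Tfb1m minus Tfb2m from 0.012 to 0.10. With the mean of a gene's probes, Nrf1 minus Gabpa was 0.25 and Polg minus Polg2 0.31 (exact permutation p = 0.10 each). The causes were not tested.

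Replicate numbers did not pair the arrays (correlations of same-numbered deviations -0.065, 0.19 and 0.11, with control replicate 1 closest to Atg5f/f;Vav replicate 2). With the replicate block, 10173 probes, 28 related genes and the same 2 members, Polrmt and Esrra, were called. A block for slide or scan could not be fitted because there was 1 of each.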
